A study of Rattus norvegicus with 3 samples.

Results

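The data described here come from the single array of untreated ROS17/2.8 cells, 1 of 3 arrays in the series, read across every probe that was not a control spot. The series measured RNA from these cells under inorganic polyphosphate, Poly(P), at 1 mg/ml (high) and 0.01 mg/ml (low) for 24 h, and without it, on Agilent rat arrays of 1 colour. The array used was the one labelled none (control). Its cells had been grown to confluence and moved to a mineralization medium with ascorbate phosphate and a glycerophosphate, a medium that all 3 groups shared, and the labels give no culture time for the control. ROS17/2.8 is a clonal line from a rat osteosarcoma that is used as a model of the osteoblast, so its RNA is that of a tumour line of 1 clone and not of bone tissue. There was 1 array per group, hence no replicate, no error between cultures and no test between samples. The levels below describe this array.

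Osteoblasts descend from mesenchymal progenitors. Runx2 and then Sp7 (osterix) commit cells to the lineage, aided by Dlx and Atf4 factors, and committed cells secrete type I collagen and carry alkaline phosphatase. Mature osteoblasts add bone sialoprotein, osteocalcin and other proteins of mineralizing matrix, and those that become buried turn into osteocytes, which make sclerostin, Dmp1 and Fgf23.

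The array held 30367 probes on 58717 spots, and the 23845 probes with a symbol covered 19769 named genes. A spot was taken as detected where the scanner software flagged it well above background, and a gene where at least 1 of its probes had at least 50% of its spots flagged. By this rule 11746 of 19769 genes were detected, which is 59.4% and is the background against which each list below is read. None of 308 negative control spots carried the flag, and their median signal was 4.66 and their highest 20.3, in the scanner's fluorescence units. Olfactory and vomeronasal receptor genes, known chiefly from sensory epithelium, were detected for 77 of 1343 (5.73%). Where detected, their median signal was 37.2 and their highest 4075, so such calls were not confined to dim signals. Detected genes had a median signal of 420 and quartiles of 110.3 and 1734.

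**Figure D1:**
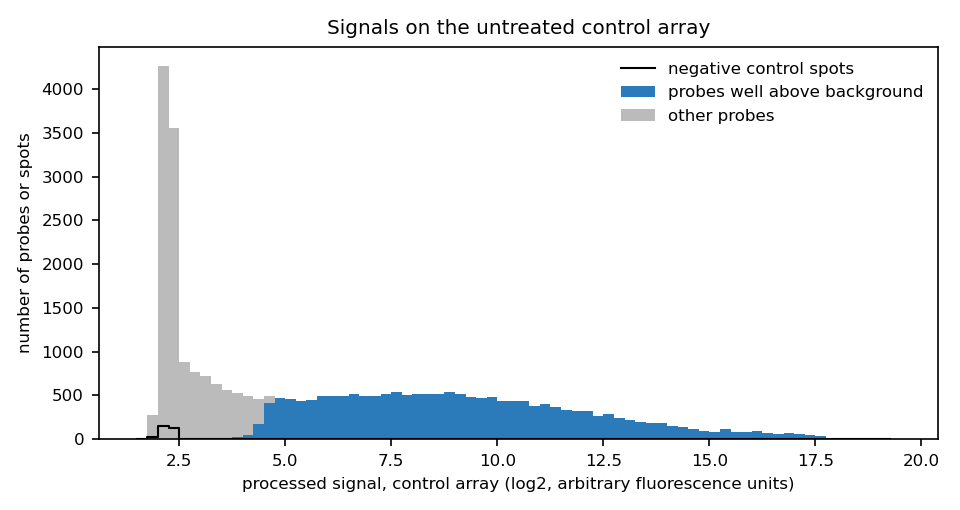
Number of probes (filled bars) and negative control spots (black line) by log2 processed signal on the control array, in bins of equal width. Probes well above background are blue and other probes grey; the negative control spots, median signal 4.66, lie with the grey peak.

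Spots of the same probe agreed closely: the pooled SD between repeat spots was 0.23 on the log2 scale in the dimmest of 10 bins of level and 0.05 in the brightest. Different probes of the same gene agreed far less. Over 2045 genes with at least 2 detected probes the brightest and dimmest probe differed by a median of 4.04-fold, with a 90th percentile of 31.4-fold. Where such probes lay on the same transcript, the one nearest its 3′ end was the brighter in 1329 of 1686 transcripts (78.8%). The order of signals is therefore an order of probes, and no ratio between genes is drawn from it. A missing flag is likewise a statement about the probe, since the probes of 631 of 3646 genes with several probes (17.3%) differed in their call.

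The 6 defining osteoblast markers were all detected, each on 1 probe, and all 6 lay above the median of detected genes. Their calls did not change under any of 9 other detection settings. The probes that carried these calls are given by the 5′ 30 of their 60 bases, from the array's own annotation, since they fix which transcript each signal refers to.
Col1a2, chr4:29428206-29428265 on the plus strand of rn4: ggccctgtctgtttcaaataagtgaactca
Alpl, chr5:156501741-156501800 on the minus strand of rn4: atttctctttttggtgttggttaaaaggga
Ibsp, chr14:6549186-6549245 on the minus strand of rn4: gtgcgtcattgaagggtcatcgtaaatcag
Spp1, chr14:6422382-6422441 on the minus strand of rn4: taagagtaaggaagatgataggtatctgaa
Dlx3, chr10:83807495-83807554 on the plus strand of rn4: cccgccttcccatttctgctttcttactgg
Dlx5, chr4:31778601-31778660 on the minus strand of rn4: acccttttttgcgcaactgtggacactatc

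Col1a2, which encodes the alpha 2 chain of type I collagen, read 88801 and 84806 on its spots. Alpl, the alkaline phosphatase gene, read 2931 and 2994. Ibsp, which encodes bone sialoprotein, read 3643 and 4014. Both spots of each probe were far above the highest negative control spot. Spp1, the osteopontin gene, was printed 10 times and ranged from 9419 to 10281 with a median of 9857. The homeobox genes Dlx3 and Dlx5 read 10797 and 9073, and 10032 and 9143. The Dlx3 spots lay further apart than those of the other 5 markers. Each of the defining markers carried the flag. They were set as markers of the labelled cell type, and the gene lists were chosen with earlier results of these data known. Their calls are therefore not a test of cell identity.

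**Figure D2:**
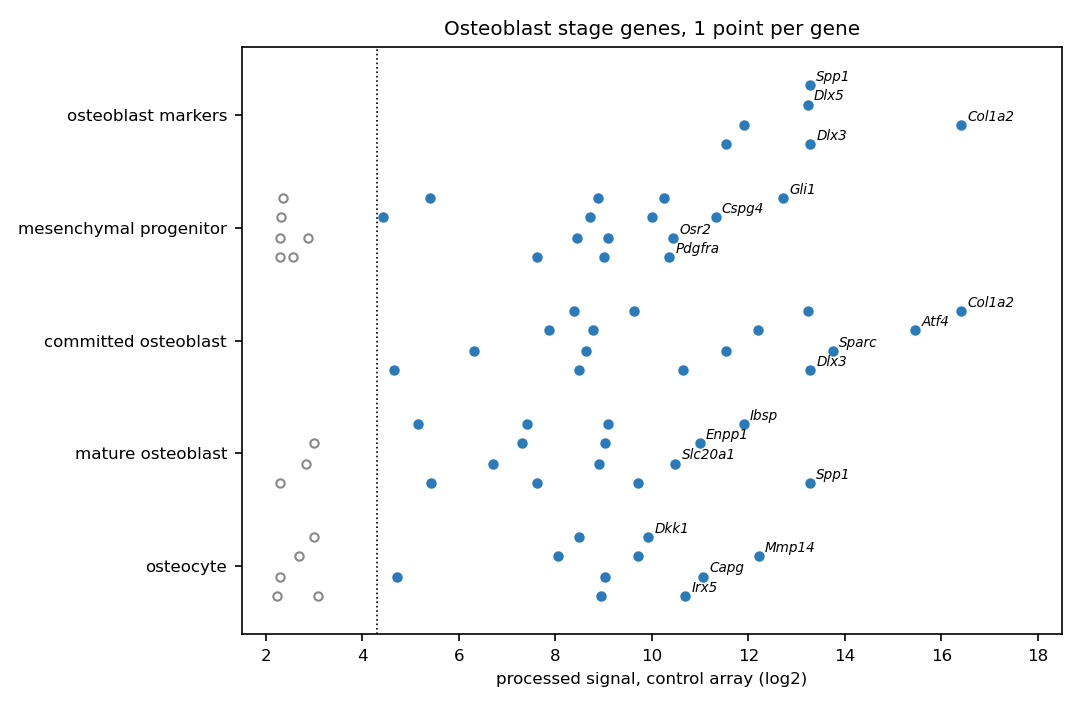
Log2 processed signal of each gene of 5 osteoblast lists on the control array, 1 point per gene, spread vertically only to separate points; the 4 brightest genes of each list are named. Filled points were well above background and open points, placed at their brightest probe, were not; the dotted line marks the lowest spot with the flag, 19.7. All 16 committed osteoblast genes are filled, and 5 of 15 osteocyte genes are open.

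Over the 5 osteoblast lists, 53 of 66 genes were detected (80.3%), beside 59.4% of all genes. These lists include that of the defining markers above, which are also members of the stage lists. They were chosen with earlier results of these data known. Of these 53, the calls of 46 held under all 9 other settings, and 50 genes were also detected on both Poly(P) arrays, which are different conditions and not replicates. The stages are described in order.

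Of 20 genes of mesenchymal progenitors and skeletal stem cells 14 were detected. The brightest was Gli1, a transcription factor and target of hedgehog signalling, at 6635 and 6851 on its spots. The pericyte proteoglycan gene Cspg4 stood at 2561, the odd-skipped factor gene Osr2 at 1390 and the PDGF receptor gene Pdgfra at 1318. Homeobox genes of early mesenchyme were also present, with Msx2 at 1227, Prrx1 at 1020 and Msx1 at 348. The surface markers Mcam, Thy1 and Nt5e, used to sort stromal cells, stood at 547, 421 and 196, and Kitlg, the gene for stem cell factor, at 515 over 3 probes from 108 to 4741. The bHLH gene Twist1 stood at 470, Nes (nestin) at 42.3 and Pdgfrb at 21.4, where only 1 of 2 spots was flagged. Not detected were Twist2, Lepr, Grem1, Cxcl12, Eng and Vcam1, which include the leptin receptor and the chemokine that mark marrow stroma.

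All 16 genes of committed osteoblasts were detected. Atf4, a factor needed for osteoblast protein synthesis, stood at 44970 and ranged from 43120 to 46924 over 10 spots. The osteonectin gene Sparc read 13838 and 13807. Col1a1, the partner chain of Col1a2, read 3108 on the single spot of 1 probe and 6636 and 7494 on the spots of another. The parathyroid hormone receptor gene Pth1r read 822 and 763. Tcf7 stood at 1607, from 1 spot, Cbfb, the gene for the binding partner of Runx proteins, at 441 and Dlx6 at 399. Sp7 read 218 and 247, and Bmp2 stood at 79.6. Lef1 was at 25.4, with 2 of 3 probes detected and 1 of those by 1 of its 2 spots.

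Runx2, the master regulator of the lineage, had 3 probes that read very differently. They are shown in transcript order, 5′ to 3′, on the plus strand of rn4, again by their 5′ 30 bases.
Runx2, chr9:11945923-11945982: aagcttgatgactctaaacctagtttgttc
Runx2, chr9:12021264-12021323: taaatccaaatttgcctaaccagaatgatg
Runx2, chr9:12025100-12025159: gggactatttgtattgtatgttgcaactgt
The probe nearest the 5′ end read 66.2 and 84.5, the middle probe 209 on its only spot, and the probe nearest the 3′ end 2332 and 2333. All were detected, and the order of brightness followed the order along the gene. The mean of the 3 on the log2 scale, a signal of 333, thus spans probes 30.9-fold apart.

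Of 17 mature osteoblast and mineralization genes on the array 14 were detected. Beside Spp1 and Ibsp, these included genes that handle phosphate and pyrophosphate: Enpp1, which makes pyrophosphate, at 2037, the phosphate transporter genes Slc20a1 and Slc20a2 at 1437 and 543, and Ankh, a gene of pyrophosphate release, at 481. The Slc20a2 value averages 3 probes from 83.7 to 9005. Fam20c, the kinase of secreted bone phosphoproteins, stood at 840, the keratan sulphate proteoglycan gene Omd at 522 and the vitamin D receptor gene Vdr at 170. Phospho1 and Smpd3, which act in matrix vesicles and in sphingomyelin breakdown, stood at 159 and 197, the latter on 1 of 2 probes. Mgp, an inhibitor of calcification, read 112 and 97.1, and the channel gene Panx3 stood at 35.5.

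Osteocalcin and the osteocyte genes Sost and Dmp1 had dim probes, which are shown because the calls rest on them.
Bglap, chr2:180482313-180482372 on the minus strand of rn4: tctgcctcgaaagtatggacggcacagctg
Sost, chr10:91026551-91026610 on the minus strand of rn4: agagtacccagagcctcctcaggaactaga
Dmp1, chr14:6638270-6638329 on the minus strand of rn4: gcttaccacaacaaacctattggggaccaa
Bglap, the osteocalcin gene and the classical late marker of the osteoblast, read 35.9 and 50.6. Sost, which encodes the Wnt inhibitor sclerostin, read 20.9 and 31.8. Dmp1, a phosphoprotein gene of the osteocyte, read 12.4 and 4.48. Bglap and Sost were thus detected, Sost with a spot close to the highest negative control spot and without the flag on at least 1 of the Poly(P) arrays, and Dmp1 was not. Of the 3 mature genes not detected, the collagenase gene Mmp13 ranged from 4.03 to 15.8 over 10 spots, the phosphate regulator Phex read 10.5 and 5.46, and Col11a1 was at 4.88.

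Of 15 osteocyte genes 10 were detected, and the brightest were those that osteocytes share with other cells. The membrane protease gene Mmp14 stood at 4758, the actin capping gene Capg at 2150 and the homeobox gene Irx5 at 1661. Mepe, a matrix phosphoglycoprotein gene of late osteoblasts and osteocytes, had 2 overlapping probes at 605 and 448. Dkk1, a Wnt inhibitor gene, read 5256 and 5952 on 1 probe and 170.2 and 166.9 on another. Pdpn, an early osteocyte marker that codes for podoplanin, averaged 491 over 2 probes, from 80.7 to 2987. The chemokine receptor gene Ackr3 stood at 360 and Cd44 at 266 over 4 probes from 70.1 to 6428. Neither Fgf23, the phosphate hormone, at 6.46, nor Tnfsf11 (RANKL) at 4.89, nor Tnfrsf11b (osteoprotegerin) at 4.67, was detected. The last 2 are the opposed regulators by which osteoblast lineage cells control osteoclasts.

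**Figure D3:**
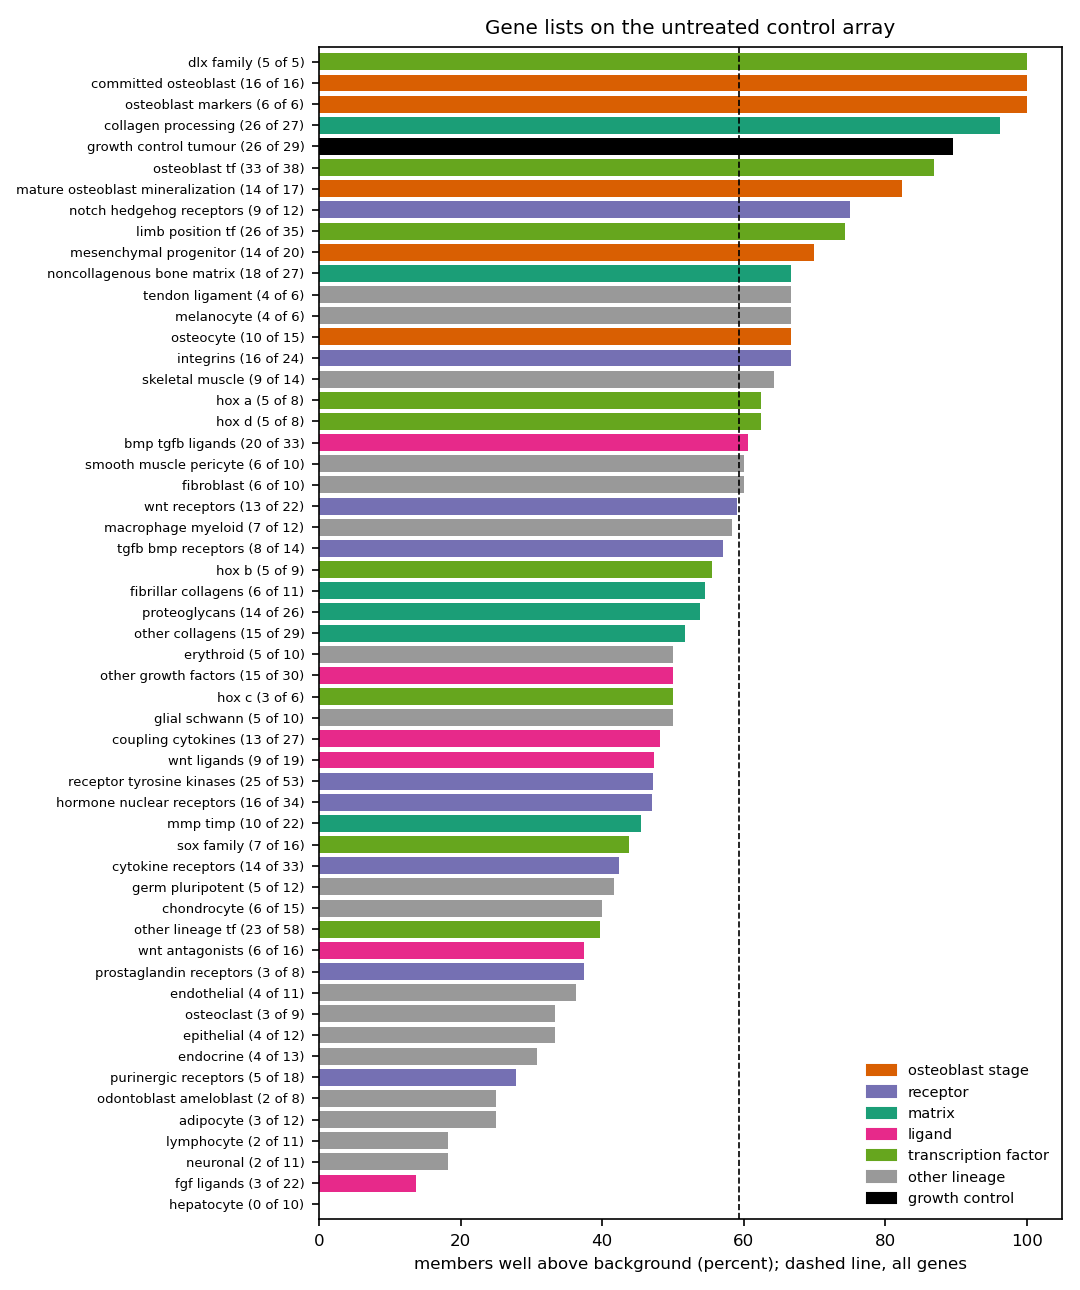
Percent of the genes of each list that were well above background on the control array, with the counts in brackets and bars coloured by role. The dashed line is the 59.4% over all genes; committed osteoblast genes stand at 16 of 16, collagen processing at 26 of 27, FGF ligands at 3 of 22 and hepatocyte genes at 0 of 10.

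Matrix genes as a role were near the background, with 89 of 142 detected (62.7%), and differed widely by class. Of 11 fibrillar collagen genes 6 were detected: the type I pair above, the type V genes Col5a2, Col5a3 and Col5a1 at 2798, 1104 and 872, and Col24a1 at 22.6 on 1 spot. The type III gene Col3a1, common in fibrous tissue, read 17.2 and 17.3 without the flag, and the cartilage genes Col2a1, Col11a1 and Col11a2 were not detected, nor was Col27a1. Among 29 other collagen genes 15 were detected, the brightest being Col16a1 at 8600, Col6a2 at 6685, Col15a1 at 510, Col6a3 at 257 and Col26a1 at 253. Of the type IV genes of basement membranes, Col4a1 stood at 43.1 on 1 of 2 probes, and Col4a2, Col4a3 and Col4a4 were not detected.

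Genes that fold, modify, cut and cross-link collagen were detected almost throughout, 26 of 27, and Loxl1 was the exception. Pcolce, which speeds removal of the procollagen C-propeptide, read 83837 on 1 probe and 139637 and 144418 on the spots of another. The next were Tent5a at 14504 on 1 spot, the prolyl hydroxylase subunit gene P4hb at 12632, the collagen chaperone gene Serpinh1 at 11283 and Ppib, a prolyl isomerase gene, at 7450. Of the lysyl oxidase genes, which start the cross-links, Loxl2 stood at 3653, Loxl3 at 366 and Lox at 163.

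Of 27 noncollagenous matrix genes 18 were detected. Beyond those already given, the brightest was Thbs2 (thrombospondin 2) at 7193, then Ccn1 at 5069 on 1 spot. Fibronectin, Fn1, averaged 2419 over probes at 607 and 9638. Ahsg, the gene of fetuin-A, a plasma protein stored in bone, read 2246 on a single spot, while its other probe read 8.3 and 11.9, so its call rests on 1 spot. Vtn, Tnn, Thbs1 and Postn, which codes for periosteal periostin, were not detected.

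Among proteoglycan genes 14 of 26 were detected. The glypican gene Gpc1 read 115766 and 118519, which placed it among the 100 brightest genes of the array. The small leucine-rich gene Fmod stood at 10680, the syndecan genes Sdc1 and Sdc2 at 10556 and 7957, and Bgn (biglycan) at 5742 between probes at 624 and 52822. Its relative Dcn (decorin), which is abundant in fibrous connective tissue, was at 50.6, and Aspn, Ogn, Kera, Epyc and Chad were not detected. Of 22 genes of matrix metalloproteinases and their inhibitors 10 were detected, with the inhibitors Timp2 at 86527 and Timp1 at 23800. Mmp15 stood at 18702 on 1 of its 2 probes and the gelatinase gene Mmp2 at 2467 between probes at 897 and 6784. Mmp3, Mmp7, Mmp8, Mmp9 and Mmp10 were not detected, nor was Timp3.

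**Figure D4:**
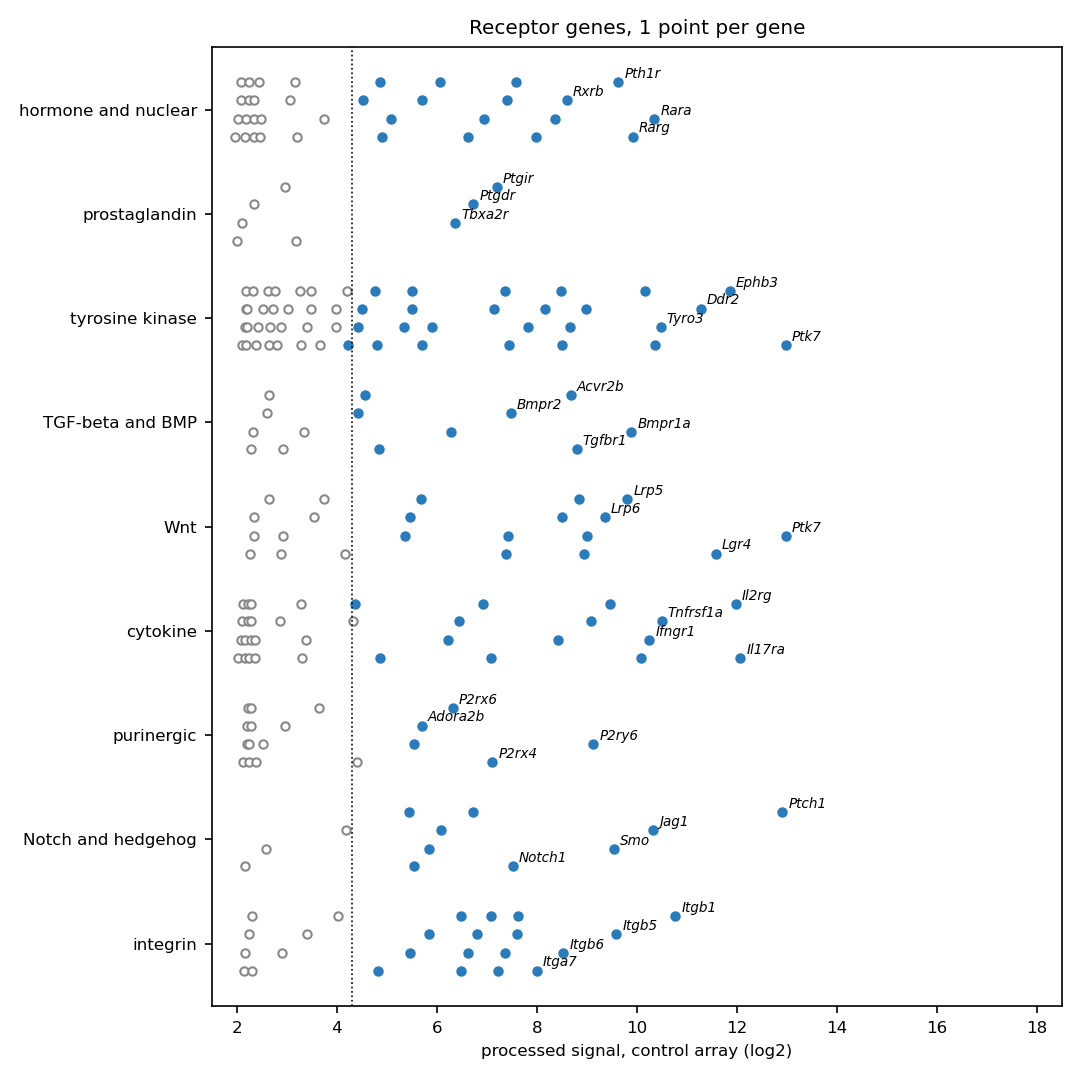
Log2 processed signal of receptor genes on the control array by family, 1 point per gene, spread vertically only to separate points; the 4 brightest detected genes of each family are named. Filled points were well above background and open points, placed at their brightest probe, were not; the dotted line marks the lowest spot with the flag, 19.7. The purinergic family has 5 filled points of 18, and the Notch and hedgehog family, which includes Notch ligands, 9 of 12.

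Genes of the receptor lists, which include some Notch ligands, were detected for 106 of 213 (49.8%), below the share of all genes. Of 34 hormone and nuclear receptor genes 16 were detected. The brightest were the retinoic acid receptor genes Rara, at 1306, and Rarg, between 186 and 5024 on 2 probes, followed by Pth1r, Rxrb at 388 and Adrb3 at 327. The vitamin D and glucocorticoid receptor genes, Vdr at 170 and Nr3c1 at 123, were also detected. The estrogen and progesterone receptor genes Esr1, Esr2 and Pgr were not, and the 10 spots of Esr1 were all without the flag. Ghr, the growth hormone receptor gene, was not detected on any of 3 probes, and neither Pth2r nor the calcitonin receptor gene Calcr was.

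Of 8 prostanoid receptor genes 3 were detected, Ptgir at 147, Ptgdr at 106.1 on 1 of 3 probes and Tbxa2r at 82.7. The 4 prostaglandin E2 receptor genes, Ptger1 to Ptger4, and Ptgfr were not. Of 18 receptors for ATP, other nucleotides and adenosine 5 were detected, and the brightest was the uridine diphosphate receptor gene P2ry6, which ranged from 536 to 607 over 10 spots with a median of 563. P2rx4 stood at 138, P2rx6 at 79.8, Adora2b at 52.1 on 1 spot and P2rx3 at 46.8. P2rx7, the large-pore ATP channel, was at 4.64, and P2rx1, P2rx2, P2rx5 and P2ry1 were likewise without the flag.

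Among 53 receptor tyrosine kinase genes 25 were detected, the brightest being Ptk7, a Wnt coreceptor, at 8059 on 1 spot, Ephb3 at 3716, the collagen receptor gene Ddr2 at 2486, Tyro3 at 1425 and Pdgfra. The FGF receptor genes Fgfr1, Fgfr2 and Fgfr3 were detected at 358, 509 and 164, and Fgfr4 was not; the 4 Fgfr2 probes ran from 53.4 to 8532. Kdr, Flt1 and Flt3 were without the flag, as was Egfr at 5.23. Of 14 genes of TGF-beta and BMP receptors 8 were detected, led by Bmpr1a at 950, Tgfbr1 at 444, Acvr2b at 409 between probes at 139 and 1208, and Bmpr2 at 178. Tgfbr3, Bmpr1b, Acvr1c, Acvrl1 and Amhr2 were not detected.

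Wnt receptor genes were detected for 13 of 22. After Ptk7 came the R-spondin receptor gene Lgr4 at 3050, the coreceptor genes Lrp5 and Lrp6, at 899 and 656, and Fzd1 at 515. Fzd4, Fzd5, Fzd8, Fzd9 and Lgr5 were not detected. Of 33 cytokine receptor genes 14 were detected, led by Il17ra at 4303. Il2rg, the common gamma chain of lymphocyte receptors, read 4130 and 3915 on 1 probe and 4.03 on the other. Tnfrsf1a stood at 1442, Ifngr1 at 1220 and Ifngr2 at 1088. Il6st, the shared signal chain of the interleukin 6 family, was detected at 539 on 1 of 2 probes, whereas Il6r, Osmr, Cntfr, Il1r1 and Il1r2 were not. Integrin genes were detected for 16 of 24, with the beta 1 chain gene Itgb1 at 1739, Itgb5 at 768, Itgb6 at 368 and the alpha chain genes Itga7 at 255 and Itga11 at 194. Itga2, Itga8, Itgad, Itgal and Itgax were not detected.

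Hedgehog and Notch receptors and ligands were detected for 9 of 12 genes. Ptch1, the hedgehog receptor and a target of the pathway, read 7500 and 7831. Jag1 stood at 1283, Smo, the signal transducer of hedgehog, at 742, Notch1 at 183 on 1 of 2 probes and Dll3 at 106.4, and Notch4 and Dll1 were not detected. A list of the hedgehog pathway, added after the Gli1 and Ptch1 values were seen, had 8 of 13 genes detected. These included Sufu at 262, Gli3 at 119, Gas1 at 82.5 and Gli2 at 81.6. The 3 ligand genes Shh, Ihh and Dhh were at 8.87, 17.6 and 9.96 without the flag.

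Ligand genes were detected for 66 of 147 (44.9%). Of 19 Wnt genes 9 were, with Wnt10b at 1804, Wnt6 at 476, Wnt10a at 363, Wnt5a at 231 and Wnt1 at 217, and Wnt2, Wnt2b, Wnt3, Wnt3a and Wnt8a were not. Of 16 secreted or surface Wnt inhibitors 6 were detected. Wif1, which binds Wnt proteins, ranged from 6232 to 7548 over 10 spots with a median of 6880. After it came Dkk1, then Notum at 287 on 1 spot, Kremen1 at 171 and Sfrp5 at 31.6 on 1 of 2 probes. Dkk2, Dkk3, Dkk4, Sfrp1 and Sfrp2 were not detected. A list of Wnt target and feedback genes, likewise added after values were seen, had 8 of 12 detected, among them Axin2 at 268 and Nkd2 at 153, and not Nkd1, Rnf43, Apcdd1 or Lgr5.

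Genes for ligands and binding proteins of the TGF-beta and BMP family were detected for 20 of 33. The activin antagonist gene Fst read 5138 and 5057, Bmp4 read 1978 and 2075, and the procollagen protease gene Bmp1 averaged 2535 between probes at 534 and 12043. Inhba stood at 903 and Gdf15 at 627. The BMP antagonist genes Nog and Grem1 were not detected, nor were Bmp5, Bmp6, Bmp7, Bmp10 and Bmp15. Of 22 FGF ligand genes 3 were detected, namely Fgf9 at 382, Fgf1 at 166 and Fgf2 at 22.3. With the scanner's looser flag, positive and significant, the count was 14 of 22, where 78.7% of all genes were detected. Above the 99th percentile of the negative control spots it was 6 of 22, where the share of all genes was 68.6%. Of 30 other growth factor genes 15 were detected. These were led by Pdgfa at 5336 between probes at 2518 and 11306, Pgf at 4077 between probes at 692 and 24032, Vegfa at 1700 over 4 probes from 124.6 to 8234, and Ccn2 at 1551. The growth factor genes Igf1, Pdgfb, Pdgfd, Vegfb and Vegfd were not. Among 27 cytokine genes that couple bone cells with osteoclasts and immune cells 13 were detected, with Cxcl10 at 546, Csf1, a growth factor gene for osteoclast precursors, at 520, Il11 at 110.7 and Ctf1 at 92.8. Il1a, Il1b and Tnf were not detected.

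Transcription factor genes were detected for 109 of 180 (60.6%), and the osteoblast factors for 33 of 38. Besides Atf4, Dlx3 and Dlx5, the brightest were Jund at 10592, Cebpb at 6267 and Mef2c, a regulator of Sost, at 6111. Twist2, Nfatc2, Smad3, Alx4 and Maf were not detected. All 5 Dlx genes on the array were detected, with Dlx1 at 1710 on 1 spot and Dlx4 at 29.7. Of 16 Sox genes 7 were detected, and Sox4, a gene of progenitor cells, stood at 6365. Sox9, the master gene of cartilage, read 269 and 248 on 1 probe and 6.7 and 7.0 on another.

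**Figure D5:**
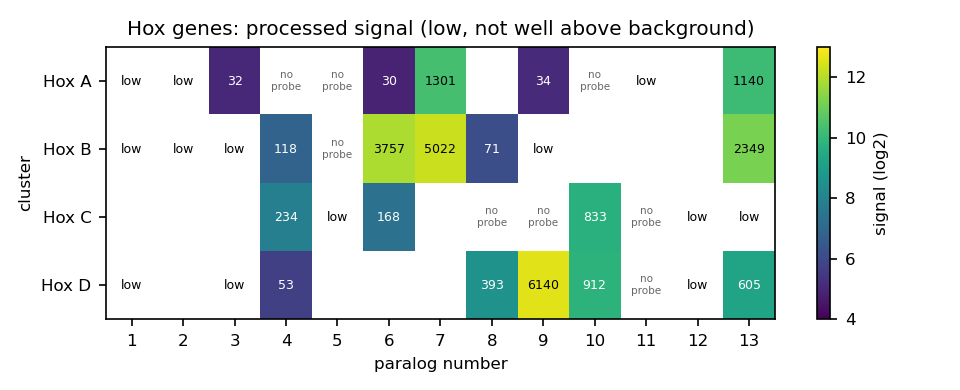
Processed signal of the Hox genes on the control array by cluster (rows) and paralog number (columns), coloured on a log2 scale from low (dark) to high (yellow). Cells marked low were not well above background, cells marked no probe had no probe under that name, and empty cells have no gene in the list; 18 genes carry a value, up to 6140 for Hoxd9.

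Hox genes record the position along the body axis from which a cell descends. On the array 18 of 31 were detected, near the 59.4% over all genes. From the 5′ ends of the clusters, which act in the limb and tail, Hoxb13 stood at 2349, Hoxa13 at 1140 and Hoxd13 at 605, and Hoxd10 and Hoxc10 at 912 and 833. Hoxc12, Hoxc13 and Hoxd12, from the same ends, were not detected. The brightest were Hoxd9, at 6263 and 6017 on its spots, Hoxb7, at 5014 and 5030, and Hoxb6 at 3757. Hoxa7 stood at 1301, Hoxd8 at 393, Hoxc4 at 234, Hoxc6 at 168, Hoxb4 at 118 and Hoxb8 at 70.9. Hoxd4, at 52.7, and Hoxa9, Hoxa3 and Hoxa6, at 33.6, 32.1 and 29.8, were the dimmest. In the B cluster Hoxb1, Hoxb2 and Hoxb3 were without the flag and Hoxb4, Hoxb6, Hoxb7 and Hoxb8 had it, and in the D cluster Hoxd1 and Hoxd3 were without it and Hoxd4, Hoxd8, Hoxd9 and Hoxd10 had it. Hoxb9 lay without the flag between Hoxb8 and Hoxb13, and Hoxa11 between Hoxa9 and Hoxa13.

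Of 35 factors of limb and axial position 26 were detected, with Prrx2 at 4775, Tbx1 at 2058, Irx5 as above, Tbx2 at 1337 and Pbx3 at 1060. Pitx1, a hindlimb gene, stood at 315. Tbx4 and Tbx5, the T-box genes of hindlimb and forelimb, were not detected, nor were Tbx20, Lhx8 and Lhx9.

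Master factors of other lineages were detected for 23 of 58 (39.7%). Those of fat (Pparg, Cebpa and Ebf2) were not, nor was Spi1 of myeloid cells or Hnf4a of liver. Of the 4 myogenic factors Myod1 and Myf6 were not detected, whereas Myf5 stood at 63.8 on 1 of 2 probes and Myog at 31.7 on 1 spot. Of the pluripotency factors Nanog was not detected and Pou5f1 stood at 364. Some were bright all the same. Tbx21, a T helper cell factor, read 45795, on 1 spot. Cdx1, a factor of the intestine and the posterior axis, read 6159 and 5859, and Runx1, a blood factor that skeletal progenitors also use, 5297 and 5512. Olig1 stood at 2630. Tp63, a factor of squamous epithelium, had probes at 1613 and 4190, both detected.

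Across 19 marker lists of other cell types 78 of 199 genes were detected (39.2%), beside 53 of 66 osteoblast stage genes, and 16 lay above the median of detected genes. Of hepatocyte genes 0 of 10 were detected, with Alb at 4.95, and neuronal and lymphocyte markers stood at 2 of 11 each. The pan-leukocyte gene Ptprc was at 4.79, and the epithelial genes Epcam and Cdh1 were at 4.95 and 4.69, without the flag. The epithelial genes Krt8, Ocln, Esrp1 and Grhl2 were detected, at up to 357. The platelet endothelial gene Pecam1 stood at 87.5, and Cdh5, Vwf and Egfl7 were also detected, whereas Kdr and Tek were not. Near the share over all genes were the lists of skeletal muscle with 9 of 14 and smooth muscle and fibroblasts with 6 of 10 each. So were those of macrophages with 7 of 12, and of tendon and melanocytes with 4 of 6 each. The chondrocyte list had 6 of 15, namely Sox9, Sox6, Col9a1, Comp, Hapln1 and Ucma, at up to 313, with Acan and Col2a1 not detected. The adipocyte list had 3 of 12. For osteoclasts, 3 of 9 were detected, with Ctsk at 22.4 and Acp5 at 73.5, and Calcr and Mmp9 were not. The brightest macrophage gene was Laptm5 at 324. The remaining lists were erythroid cells and glia at 5 of 10 each, tooth-forming cells at 2 of 8 and endothelium at 4 of 11. Epithelium stood at 4 of 12, germ and pluripotent cells at 5 of 12 and endocrine cells at 4 of 13.

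The lineage markers above the median of detected genes were mixed. S100a4 and Gsn, fibroblast markers that many cells express, stood at 55107 and 12207, and Pdgfra, Fmod and Scx, a tendon factor gene at 1254 between probes at 400 and 3930, belong to skeletal mesenchyme too. Cfd, the complement factor D gene of fat cells, read 6131 and 6319, and the other adipocyte genes detected were Fabp4 at 132 and Retn at 26.4. Ckm, the muscle creatine kinase gene, read 1858 and 1907, with Actc1 at 459. The erythroid gene Hba-a1 stood at 2441 on 1 of 2 probes, while Hbb and Alas2 were not detected. Ambn, the ameloblastin gene of enamel, read 1222 and 1408, though Amelx, Enam and Amtn were not detected, and Dspp, the dentin gene, was at 82.6 on 1 of 3 probes. Others were Tubb3 at 1079, Smtn at 778 between probes at 209.7 and 2883, Pomc at 684, Egfl7 at 490 and Cspg4, already given.

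Genes of the cell cycle and growth control were detected for 26 of 29. Cdk4 stood at 15427, Cdkn1a, the p21 inhibitor gene, at 13324, Ccnd1 at 7808, Mki67, a proliferation marker, at 5115 over 3 probes from 2284 to 12070, and Myc at 4195. Cdkn2a read 36.3 and 24.9, and Ccnd2, Mycn and Cdkn2b were not detected.

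The brightest genes of the array were those of the translation machinery. Of the 30 brightest, 18 were ribosomal proteins or their named copies, and of the 100 brightest, 55. Rpl41 was at the top with 492858 on 1 spot, followed by Rplp0 at 357596. Copies of a gene share sequence, so signals are uncertain where copies are named separately. Of the 30, 11 carry only a locus number, and 6 of these are ribosomal. Others in the 30 were the ferritin genes Ftl1 and Fth1, at 224400 and 197139, the glycolytic genes Pgk1 at 250622 and Pgam1 at 165010, and the tubulin gene Tubb4b at 196480. Stfa2, a stefin protease inhibitor gene, stood at 333989 on 1 spot, and Ceacam9, an adhesion molecule gene known from placenta, at 268440 on 2 spots. Col1a2 was the brightest of the osteoblast markers and ranked 120 of 11746 detected genes.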

How the data were processed

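The scanner files that the authors deposited give an intensity for each spot. Agilent Feature Extraction 10.7.3.1 made them on array design 028279 and, per the file headers, subtracted background and detrended within the array. The authors' deposited series table is a ratio: set against the scanner file, its control column was the processed signal over 823, a single constant, with a median of 0.0737, so it is linear and not centred between genes. No source used here says how that table was made. Outlier spots, 426 in all, were left out where a probe had other spots, and the remaining spots were averaged. A gene's level was the mean log2 signal over its detected probes, printed back as a signal. No spot was saturated. Symbols were updated through RefSeq accessions for 18438 probes and unique synonyms for 419, using a gene table of GRCr8 for names only. A further 6522 probes had no symbol. Values were computed with Python 3.11.15, pandas 2.3.3 and, for the normexp alternative with an offset of 50, limma 3.58.1. The code for calls and levels was run on made-up spots whose flags and signals were set beforehand. That run checks the code only and cannot show whether the scanner's flag marks expressed genes. Printed positions are those of the array design, rn4.

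The members and gene lists were chosen with earlier results of these data known. Named genes were the 30 brightest with a symbol, all genes of the osteoblast stages, up to 5 brightest detected and up to 5 undetected genes of each other list, all detected Hox genes, and markers of other lineages above the median of detected genes. Not all are printed, some because they are not reported here, and a few further members are named as examples chosen after their values were seen. The number of arrays limits the precision. Alternatives changed the detection rule, the outlier filter, the background correction, the symbols and the level of a gene with several probes.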

Additional observations from a re-analysis of the deposited data

How the results depend on the processing

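The count of detected genes, 11746, ranged from 8570 to 15558 over 9 other detection settings, and the count of osteoblast stage genes, 53, from 50 to 61. With the scanner's looser flag, positive and significant, 135 of 199 genes of other lineages were detected (67.8%) in place of 78 (39.2%). The share of all genes rose with it, from 59.4% to 78.7%, and that of osteoblast stage genes from 80.3% to 92.4%. The same flag gave 544 of 1343 olfactory and vomeronasal receptor genes in place of 77. That olfactory count was 244 when spots above the 99th percentile of the negative control spots were counted, and 44 when only probes with repeat spots that were all flagged were used, a setting chosen after seeing the data. The looser flag moved the counts of 25 of 55 lists by over 1.5 times, the setting of repeat spots only those of 8, and the 99th percentile those of 6. Asking for all probes of a gene moved those of 3, and each other setting those of at most 1. The cause was not tested. Of 469 detected list members, 338 kept their call under all 9 settings. Among the 30 brightest genes, 26 were shared with normexp background correction and 21 when each gene took its brightest probe. No paired analysis was possible because each group holds 1 array, and leaving out a replicate was not possible for the same reason. Among dim genes, the calls of Sost and Panx3 were made under 8 of the 9 settings. The exception asked for the flag on both Poly(P) arrays as well, so it is not a change on the control array. Lef1 was called under 6. It was not called where all its probes, only fully flagged repeat spots, or the flag on both Poly(P) arrays as well were asked for.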

Other observations

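Detection differed by chromosome on the control array. Among genes with an rn4 position in the array design, and without olfactory and vomeronasal receptor genes, 298 of 709 on chromosome X were detected (42.0%). On the autosomes the share ran from 55.9% on chromosome 4 to 71.6% on chromosome 12. This is a count over genes on 1 array, with no test.

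Signals also moved with the base composition of the probes. Split into 4 equal groups by GC content, 56.5%, 56.5%, 53.0% and 62.9% of probes were detected from the lowest to the highest GC, and the median signal of those detected was 617, 577, 395 and 262. The part of this in the order of genes was not tested.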
